A study of Mus musculus with 12 samples.

Results

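Early fallers of the embryonic mouse eyelid are array probes whose signal was clearly above background at E14.5 (stages are named by embryonic day), was lower at E16.5, and had made most of that drop by E15.5. They were chosen by the measured values themselves. From the authors' deposited values, the mean of the 4 arrays of each stage was taken over both genotypes. A probe was kept where the E16.5 mean was at least 2.00-fold below the E14.5 mean and where the E15.5 mean had covered at least 0.65 of that drop (called the share by E15.5). It also had to be well above background, by the scanner software's own call, in the eyelid channel on all 4 E14.5 arrays. The rule kept 157 of the 41999 probes in the authors' table. It therefore fixed the direction and the timing, and the drops below are described without a test.

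The 6 groups were wild-type and Tabby eyelids, each sampled at E14.5, at E15.5 and at E16.5, with 2 arrays each, and the labels call the arrays of a group biological replicates. Both genotypes carry the strain label C57BL6/J. Tabby is a mutation of Eda; the labels give no further detail of the allele, and the sex of the embryos and the number of eyelids behind an array are not given in the sources used here. Each array set eyelid RNA (Cy3, green) against a common reference of pooled mouse cell line RNA mixed with embryonic stem cell RNA (Cy5, red), with no dye swap. All 4 arrays of a stage lay on 1 slide that was scanned apart from the others, so stage and slide cannot be told apart. Wild-type and Tabby arrays also held fixed positions on every slide, so genotype and position cannot be told apart. Having only 2 arrays a group limits how precise any value can be.

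Eda is a ligand of the tumour necrosis factor family that binds the receptor Edar on surface epithelium and acts through NF-kappaB; Tabby mice form neither Meibomian glands nor several other skin appendages. Meibomian glands are large sebaceous glands of the eyelid margin that supply the lipid of the tear film, and they start as epithelial buds late in embryonic life. In the days sampled here the mouse eyelids grow across the cornea and fuse, a period in which surface epithelium, mesenchyme and muscle of the lid all remodel. In whole dissected eyelids, fewer cells of a type and less RNA per cell cannot be told apart.

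The deposited files name each probe by an identifier only and give no gene or map position for it, so members are given here by identifier and by the 60-base probe sequence that the scanner files hold. The first set shows the 10 members with the largest drops, which rank highest on the authors' values; 6 of them were not well above background on any E16.5 array, so their rank rests on dim spots. Capitals mark the hexamers AATAAA and ATTAAA, the usual polyadenylation signals near the 3′ end of an mRNA, on the strand as printed, 5′ to 3′.
Z00031351-1: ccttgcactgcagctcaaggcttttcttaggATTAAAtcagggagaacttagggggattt
Z00058234-1: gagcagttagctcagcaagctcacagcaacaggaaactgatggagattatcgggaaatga
Z00048455-1: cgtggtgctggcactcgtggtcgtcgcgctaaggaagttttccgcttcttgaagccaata
Z00024668-1: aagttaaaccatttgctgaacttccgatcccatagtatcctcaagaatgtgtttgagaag
Z00054255-1: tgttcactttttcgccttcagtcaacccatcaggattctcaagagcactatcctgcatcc
Z00072898-1: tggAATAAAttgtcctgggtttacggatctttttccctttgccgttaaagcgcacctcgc
Z00062963-1: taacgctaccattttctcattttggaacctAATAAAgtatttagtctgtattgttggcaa
Z00031534-1: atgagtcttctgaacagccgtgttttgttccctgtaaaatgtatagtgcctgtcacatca
Z00064178-1: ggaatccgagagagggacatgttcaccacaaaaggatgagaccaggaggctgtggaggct
Z00029509-1: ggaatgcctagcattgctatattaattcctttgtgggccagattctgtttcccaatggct

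The next 5 sequences belong to the members with the largest drops, after Z00064178-1, among those that stayed well above background on all 12 arrays; they were picked after their values were seen. Capitals mark the same hexamers.
Z00050062-1: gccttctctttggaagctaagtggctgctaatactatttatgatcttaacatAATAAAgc
Z00049101-1: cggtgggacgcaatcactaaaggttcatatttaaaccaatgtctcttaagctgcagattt
Z00006534-1: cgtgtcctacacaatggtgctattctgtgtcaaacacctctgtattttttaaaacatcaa
Z00023710-1: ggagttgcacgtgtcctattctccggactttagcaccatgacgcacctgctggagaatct
Z00026034-1: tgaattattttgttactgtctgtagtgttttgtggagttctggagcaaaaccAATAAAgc

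Over the 157 members the median drop from E14.5 to E16.5 was 1.35 on the log2 scale of the authors' values, or 2.54-fold, and the median share by E15.5 was 0.75. Over all 32981 probes tested, the median difference between the same stages was -0.11. The drop reached at least 3-fold in 45 members and at least 4-fold in 19, and was under 2.5-fold in 76. The largest was 10.8-fold, for Z00031351-1. The members' median difference was -1.06 from E14.5 to E15.5 and -0.33 from E15.5 to E16.5.

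The share by E15.5 lay between 0.65 and 0.75 in 78 members, between 0.75 and 0.85 in 37, between 0.85 and 0.95 in 22 and between 0.95 and 1.05 in 8, and was above 1.05 in 12. In 18 members it exceeded 1, so that their E15.5 mean lay below their E16.5 mean. The highest share was 1.36. All 4 E15.5 arrays read below all 4 E14.5 arrays in 124 of the 157 members, a pattern that 26.7% of all probes tested showed. All 4 E16.5 arrays read below all 4 E14.5 arrays in 137 members, against 35.7% of all probes. Between the later stages the arrays separated less often: all 4 E16.5 arrays read below all 4 E15.5 arrays in 20 members, or 12.7%, against 19.3% of all probes. Since the rule used these stage means, nothing is read from these counts.

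The probes at the edges of the rule differed little from those it left out. Z00024391-1 and Z00069180-1, just inside the limit on the size of the drop, dropped 2.008-fold and 2.004-fold, and Z00050975-1 and Z00056463-1, just outside, 1.999-fold and 1.993-fold. Z00057230-1 and Z00035949-1, just inside the limit on timing, had shares of 0.6507 and 0.6510 on the authors' values, and Z00036119-1 and Z00042197-1, just outside, had 0.6490 and 0.6489. Z00057230-1 was well above background on 1 of 4 E15.5 arrays and on none at E16.5, where it was at least 1.07-fold lower than at E14.5, so its share rests on dim spots. A further 571 probes met the other conditions with a share below 0.65 and are called later fallers here; their median drop was 1.27 on the log2 scale and their median share 0.48. The early fallers made up 21.6% of the 728 probes in both sets.

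Among the members with the largest drops, Z00031351-1 read, as log2 of the authors' values, 8.64 and 8.50 on the wild-type and 8.56 and 8.01 on the Tabby arrays at E14.5. At E15.5 it read 6.03 and 4.69 in wild-type and 5.87 and 6.28 in Tabby, and at E16.5 it read 4.28 and 5.19 in wild-type and 4.86 and 5.64 in Tabby. Every later array lay below every E14.5 array, while the E15.5 and E16.5 arrays overlapped; 3 of the 4 E16.5 arrays were well above background. Z00048455-1 had a similar course that ended earlier, at a share of 0.95. It read 8.19 and 9.00 in wild-type and 8.72 and 6.46 in Tabby at E14.5, 5.34 and 4.76 against 5.32 and 5.55 at E15.5, and 5.08 and 4.62 against 4.85 and 5.80 at E16.5. One Tabby array at E14.5 stood well below the other 3, yet still above all later arrays.

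Z00072898-1, with a drop of 6.94-fold on the authors' values, did not separate as cleanly, and at E16.5 it was well above background on 1 of 4 arrays. Its E14.5 arrays read 7.27 and 7.21 in wild-type and 8.14 and 6.68 in Tabby. At E15.5 wild-type replicate 2 read 6.85, inside the E14.5 range, whereas wild-type replicate 1 read 3.55 and the Tabby arrays read 4.62 and 4.90. At E16.5 the 4 arrays lay between 4.08 and 4.88. Z00064178-1 had the same odd array: wild-type E15.5 replicate 2 read 7.59, against 5.78 in the other wild-type array and 5.82 and 5.54 in Tabby, where E14.5 arrays had read 8.17, 8.01, 8.14 and 7.13 and E16.5 arrays read 5.81, 5.44, 4.62 and 5.61.

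The other 6 of the 10 largest drops ended below the detection call on every E16.5 array, so only a lower bound on each can be given. The bound sets the E14.5 mean of the eyelid channel against the higher of the probe's own signal and the lowest signal that any probe well above background had on that array. These means came after background correction with an added offset, loess and scaling of the array averages. Z00058234-1 was at least 1.54-fold higher at E14.5 than at E16.5, where the authors' values gave 9.59-fold. The bounds were 1.33-fold for Z00024668-1, 1.28-fold for Z00029509-1, 1.22-fold for Z00031534-1, 1.20-fold for Z00054255-1 and 1.15-fold for Z00062963-1, all as "at least". The sizes of these drops on the authors' scale, from 5.63-fold to 9.59-fold, were thus read from spots that were not well above background at E16.5.

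The members with full detection showed the pattern in brighter spots. Z00006534-1 was the brightest at E14.5 of the 5 shown above with full detection, with 14.07 and 14.44 in wild-type and 14.54 and 13.65 in Tabby. At E15.5 it read 12.94, 12.43, 12.46 and 12.77 and at E16.5 12.17, 11.60, 11.84 and 12.14, in the order of wild-type then Tabby arrays, and the stages did not overlap. Its reference signal was also lower at the last stage than at the first, by 1.12 on the log2 scale of the processed signal, while its eyelid signal was lower by 3.35.

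Z00050062-1 read 11.40, 11.69, 11.98 and 10.81 at E14.5, again wild-type then Tabby, and 9.81, 9.26, 9.62 and 9.88 at E15.5. At E16.5 wild-type replicate 1 read 7.97 and the other arrays 9.70, 9.46 and 9.29, so that 3 of 4 arrays lay within the E15.5 range. Z00023710-1 read 10.05, 10.88, 10.88 and 9.61 at E14.5, then 9.38, 8.50, 8.56 and 8.57 at E15.5, and finally 7.81, 8.26, 8.11 and 8.50. Its E14.5 arrays lay above all later ones, and its later stages nearly met at 8.50.

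Z00026034-1 went from 9.36, 9.57, 10.13 and 9.31 at E14.5 to 8.19, 7.71, 7.74 and 8.59 at E15.5 and to 7.31, 7.40, 7.32 and 7.98 at E16.5. The highest reading of each later stage was Tabby replicate 2. Z00049101-1 varied more between replicates, with 10.81, 9.91, 10.01 and 9.87 at E14.5, then 9.26, 7.40, 8.27 and 9.35 at E15.5, and finally 7.06, 8.43, 6.99 and 8.83. Its E14.5 arrays still lay above all later arrays. All 6 of the full-detection members described here also met the rule when it was applied to the loess-normalised ratios. They were picked for their large drops, and of all 157 members only 36, or 22.9%, met it on those ratios.

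Dimness was common among the early fallers. Their median processed eyelid signal at E14.5 was 134 intensity units, against 309 for the later fallers and 603 for all probes tested. At E15.5, 102 of the 157 were well above background on all 4 arrays and 10 on none; at E16.5 the counts were 92 and 25. For the 10 members below the call on every E15.5 array the lower bounds ran from 1.04-fold to 1.61-fold, and for the 25 at E16.5 from 1.03-fold to 1.54-fold. Well above background on all 12 arrays were 91 members, or 58.0%, against 74.8% of the later fallers and 88.2% of all probes tested. Since the rule required a drop after E14.5, a lower share than over all probes follows in part from it. Those 91 had a median drop of 1.35 on the log2 scale and a median share of 0.72, and the other 66 had 1.31 and 0.80. Of the 18 members whose share exceeded 1, 12 were among those 66.

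The reference channel also bears on these values, because they rest on both dyes. Comparing E16.5 with E14.5, the processed eyelid signal alone was lower in all 157 members, and at least 2-fold lower in 138. Its median difference was -1.44, against -0.12 over all probes tested. The authors' values are built from this signal, so its drop follows largely from the rule. In the reference channel, which held the same RNA on every array, the median difference was -0.03. The reference signal was higher by more than 0.5 on the log2 scale in 4 members and lower by more than 0.5 in 8. On all 12 arrays the reference was well above background for 117 members, or 74.5%, and on none for 21, or 13.4%; over all probes tested the shares were 92.9% and 2.03%.

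Not every drop was shared by the arrays of a stage. Leaving out each of the 12 arrays in turn, 47 members met the rule every time, 27 of them well above background on all 12 arrays; the median drop of the 47 was 1.53. The drop itself stayed past 2.00-fold without each array in 114 members. In 7 members the highest E14.5 array read more than 1 log2 unit above the next. In 4 the drop came to less than 0.5 without a single array, and these were picked after their values were seen. For Z00070676-1 the array was Tabby E14.5 replicate 1, which read 11.29 where the other E14.5 arrays lay between 5.80 and 5.95; Feature Extraction flagged that spot as an outlier, it was left out of the fit, and without the array the difference was -0.17. For Z00009936-1 it was wild-type E14.5 replicate 2, at 9.23 against at most 4.95, and without it the difference was 0.09. For Z00055739-1 and Z00074290-1 it was Tabby E14.5 replicate 1, at 8.36 against at most 5.74 and at 7.85 against at most 4.87, and without it the differences were -0.39 and -0.49. Of all 157 members, Z00070676-1 alone had a flagged spot on any array.

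Some members share sequence with each other or with other probes of the array, so that such members are not independent. With a shared run of at least 20 bases as the criterion, 3 pairs of members were found. Capitals mark the run shared within each pair.
Z00010110-1: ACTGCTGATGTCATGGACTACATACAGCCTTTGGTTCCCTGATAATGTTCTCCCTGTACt
Z00035035-1: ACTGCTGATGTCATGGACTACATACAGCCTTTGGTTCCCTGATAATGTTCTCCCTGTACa
Z00038597-1: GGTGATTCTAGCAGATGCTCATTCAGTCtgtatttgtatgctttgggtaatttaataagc
Z00055332-1: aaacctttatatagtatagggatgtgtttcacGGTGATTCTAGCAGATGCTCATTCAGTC
Z00075178-1: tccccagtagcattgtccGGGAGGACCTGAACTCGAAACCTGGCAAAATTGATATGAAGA
Z00076716-1: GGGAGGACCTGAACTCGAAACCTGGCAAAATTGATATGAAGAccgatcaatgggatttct

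Both probes of each pair were kept by the rule, so their similar drops are a description only. Z00010110-1 and Z00035035-1, alike over 59 of 60 bases, dropped by 1.35 and 1.43, with shares of 0.94 and 0.74. Z00038597-1 and Z00055332-1, which overlap by 28 bases, dropped by 1.32 and 1.12, with shares of 1.01 and 1.05. Z00075178-1 and Z00076716-1, which overlap by 42 bases and were bright, dropped by 1.43 and 1.54, with shares of 1.05 and 1.03. For Z00075178-1 the E14.5 arrays read 10.81 and 11.32 in wild-type and 11.66 and 9.93 in Tabby. Its E15.5 arrays read 9.75 and 9.16 against 9.40 and 9.40, and its E16.5 arrays 9.65 and 9.53 against 9.23 and 9.60. The later stages lay on top of each other, with every array below every E14.5 array. Z00076716-1 read 10.54 and 10.93 against 11.26 and 9.47 at E14.5, and between 8.65 and 9.32 on the 8 later arrays. In both probes Tabby E14.5 replicate 2 was the lowest E14.5 array.

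A further 9 members shared such a run with 10 probes outside the set, of which 7 were well above background on all 4 E14.5 arrays. Of these 7, Z00054196-1 had the longest shared run, 58 bases, and is shifted by a few bases from Z00049101-1. Z00076821-1, with a shared run of 46 bases, is not shifted from Z00024391-1 and differs from it by a single base. The pair below is shown because the same stretch came out on either side of the limit on timing.
Z00049101-1: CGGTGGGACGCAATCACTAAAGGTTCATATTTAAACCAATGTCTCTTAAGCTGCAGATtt
Z00054196-1: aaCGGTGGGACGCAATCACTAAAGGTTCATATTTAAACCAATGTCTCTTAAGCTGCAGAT

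Z00049101-1 dropped by 2.32 with a share of 0.68, and Z00054196-1 dropped by 2.52 with a share of 0.60. The relative of Z00075320-1, Z00053024-1, dropped by 1.18 with a share of 0.62, against 1.17 and 0.65 for the member. For Z00024391-1 and Z00076450-1, whose own drops were 1.01 and 1.12, the relatives Z00076821-1 and Z00057509-1 dropped by 0.85 and 0.85, with shares of 0.85 and 0.88, short of the limit on size. Of the other 3 detected relatives, Z00027238-1, which shares 20 bases with Z00078063-1, differed by 0.01 between E14.5 and E16.5. Z00034075-1 and Z00033919-1, the relatives of the one-array member Z00070676-1, differed by -0.34 and -0.10.

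One sequence feature stood out on reading the members' probes and was chosen after their values were seen. Messenger RNAs of the replication-dependent histones, which package newly made DNA in dividing cells, end in a short hairpin in place of a poly(A) tail. A 16-base form of it was searched on the printed strand as GGNNCTNNNNAGNNCC, with the first and last 6 bases required to be reverse complements. Of all 42006 probes 3 held it, and 2 of them were members. Capitals mark the hairpin.
Z00076137-1: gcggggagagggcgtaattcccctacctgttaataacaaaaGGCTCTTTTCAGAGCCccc
Z00025717-1: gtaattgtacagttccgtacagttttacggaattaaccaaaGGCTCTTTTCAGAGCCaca
Z00075977-1: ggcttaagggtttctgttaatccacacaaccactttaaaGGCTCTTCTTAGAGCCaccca

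Both members with the hairpin were well above background on all 12 arrays. Z00076137-1 read 8.38 and 8.26 in wild-type and 8.42 and 8.28 in Tabby at E14.5, 7.48 and 7.32 against 7.20 and 7.53 at E15.5, and 7.27 and 7.03 against 6.99 and 7.10 at E16.5. It dropped 2.36-fold with a share of 0.77. Z00025717-1 read 7.81 and 7.87 against 7.90 and 7.81 at E14.5, 6.96 and 7.03 against 7.08 and 7.15 at E15.5, and 6.76 and 6.61 against 6.57 and 6.90 at E16.5, a drop of 2.20-fold with a share of 0.70. In both, each E14.5 array lay above every later array. Z00075977-1, whose hairpin has another loop, dropped 1.32-fold with a share of 0.53 and was no member. A match of letters does not establish which gene a probe measures, and most histone genes of this class exist in near-identical copies that a probe can share.

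Other features of the probe sequences are set beside those of the later fallers and of all probes tested. Median GC content was 43.3% in the members, 41.7% in the later fallers and 45.0% in all probes tested. A poly(A) hexamer lay on the printed strand in 23 members, or 14.6%, against 10.2% of the later fallers and 10.3% of all probes tested; on the opposite strand the shares were 6.37%, 6.83% and 5.20%. The motif ATTTA, part of the AU-rich elements of short-lived mRNAs, was in 7.64%, 10.3% and 6.89% on the printed strand. A reading frame without a stop codon across the printed strand was found in 75.8%, 77.2% and 83.1%. These shares are given as a description without a test.

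Both genotypes showed the drop. The rule had required it of their common mean, so a drop within each genotype is a description only. The E16.5 mean lay below the E14.5 mean in all 157 members in wild-type and in 155 in Tabby, and by at least 2.00-fold in 143 and 123. The median difference was -1.46 in wild-type and -1.26 in Tabby. By E15.5 the median difference was -1.22 in wild-type and -0.92 in Tabby, and the median share was 0.78 and 0.73. Both conditions on size and share held in 126 members within wild-type alone and in 81 within Tabby alone. The drop to E16.5 was smaller in Tabby in 107 members and larger in 50, a split that was not counted over all probes and not tested.

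Single arrays moved with that difference. Relative to the E14.5 mean, the members' median value on the authors' scale was -1.07 and -1.14 on the wild-type E15.5 arrays and -1.16 and -0.84 on the Tabby ones. At E16.5 it was -1.44 and -1.40 in wild-type and -1.45 and -1.19 in Tabby. At E14.5 it was 0.04 and 0.05 in wild-type and 0.05 and -0.17 in Tabby. At each stage Tabby replicate 1 read close to the wild-type arrays, and Tabby replicate 2 read lower at E14.5 and higher later. Tabby replicate 2 was the lowest of the 4 E14.5 arrays in 81 members. It was the highest at E15.5 in 79 and at E16.5 in 76. These counts were not made over all probes, so whether the pattern is particular to the members was not tested. Over all probes tested, the median on Tabby replicate 2 relative to the E14.5 mean was 0.01 at E14.5, -0.04 at E15.5 and -0.10 at E16.5. Replicates have no order across stages. The effect of leaving out the Tabby replicate 2 arrays is given below on the scale of the tests and not on the authors' values.

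The genotype difference was not used to choose the members and was tested with limma on log2 ratios of eyelid over reference, adjusted by Benjamini-Hochberg over all 32981 probes. On this scale, to which background correction adds an offset, the members' median difference from E14.5 to E16.5 was -0.57 and the drop was seen in 156 of 157. No member passed an adjusted p of 0.05 for Tabby minus wild-type at any stage or for the mean over stages. At E14.5 none of 157 was called, 0% of all probes were called, and 5 members, or 3.18%, had an unadjusted p under 0.05, against 2.40% of all probes. At E15.5 none was called, 0% of all probes were called, and 8 members, or 5.10%, had such a p, against 6.70%. At E16.5 none was called, against 0.0819% of all probes (27 probes), and 2 members, or 1.27%, had such a p, against 3.97%. For the mean over stages none was called, against 0.0303% of all probes (10 probes), and 8 members, or 5.10%, had such a p, against 5.86%.

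The members' median Tabby minus wild-type difference was -0.03, 0.02 and 0.02 over the successive stages, and the medians over all probes were 0.01, 0.01 and 0.00. With processed signals and loess the members' medians were -0.13, 0.12 and 0.07. With each array left out in turn they ranged from -0.11 to 0.02 at E14.5, from -0.04 to 0.08 at E15.5 and from -0.03 to 0.08 at E16.5, so that 1 array changed the sign at every stage. Arrays of the genotypes did not overlap, with Tabby below, in 32 of 156 members with all 4 values at E14.5, or 20.5%, against 15.9% of all probes, and with Tabby above in 15, or 9.62%, against 20.0%. At E15.5 Tabby lay below in 8 of 157, or 5.10%, against 14.3%, and above in 25, or 15.9%, against 19.2%. At E16.5 Tabby lay below in 14, or 8.92%, against 14.4%, and above in 26, or 16.6%, against 14.3%. These counts were not tested.

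Whether the drop itself differed between the genotypes was tested as the change of the genotype difference between stages. From E14.5 to E15.5 no member was called by limma, 0% of all probes were called, and 7 members, or 4.46%, had an unadjusted p under 0.05, against 2.47% of all probes. From E14.5 to E16.5 no member was called, against 0.00606% of all probes (2 probes), and 6 members, or 3.82%, had such a p, against 2.36%. The members' median of Tabby drop minus wild-type drop was 0.05 to E15.5 and 0.07 to E16.5, where a positive value is a smaller drop in Tabby. Over all probes these medians were 0.005 and -0.004. The value was positive in 92 of 157 members in each case, a count that was not made over all probes. With each array left out in turn, the first of the members' medians ranged from -0.01 to 0.12 and the second from -0.01 to 0.11. Both were lowest without Tabby E14.5 replicate 2 and highest without Tabby E14.5 replicate 1. Without Tabby E15.5 replicate 2 the first was 0.01, and without Tabby E16.5 replicate 2 the second was 0.01. On some other values of the same arrays these medians were larger. They were 0.25 and 0.17 with processed signals and loess, 0.31 and 0.18 on Feature Extraction's own ratio and 0.28 and 0.18 on the authors' values. With median centring they were 0.05 and 0.04, and on the eyelid channel alone 0.06 and 0.06, so the second was not larger there. Among the 91 members well above background on all 12 arrays they were 0.17 and 0.11. No member was called under any of these settings other than the omission given below.

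The members with the smallest p in each genotype test are shown, though not all of them came near a call. Capitals would mark poly(A) hexamers, of which these 3 have none on the printed strand.
Z00023388-1: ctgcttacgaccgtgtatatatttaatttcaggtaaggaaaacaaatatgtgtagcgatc
Z00036582-1: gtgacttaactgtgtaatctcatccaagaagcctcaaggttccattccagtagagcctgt
Z00063285-1: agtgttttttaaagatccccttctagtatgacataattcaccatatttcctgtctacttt

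Z00023388-1 had the smallest p of the members in both later stages and over all stages. As log2 eyelid over reference it read 0.53 and 0.56 in wild-type and 0.65 and 0.65 in Tabby at E14.5, -0.03 and 0.12 against 0.22 and 0.35 at E15.5, and 0.01 and -0.03 against 0.14 and 0.21 at E16.5. Tabby lay above wild-type without overlap at each stage. The mean difference over stages was 0.18 (SE 0.04, limma adjusted p = 0.33), with 0.24 (SE 0.07, adjusted p = 0.59) for E15.5 and 0.19 for E16.5 (SE 0.07, adjusted p = 1.00). The wild-type E16.5 spots were not well above background on either array. With processed signals and loess the differences were 0.64 over stages, 0.86 for E15.5 and 0.94 for E16.5, with limma adjusted p of 0.17, 0.44 and 0.19. Without wild-type E15.5 replicate 2 the probe was called at that stage (0.31, limma adjusted p = 0.04) and over stages (0.20, adjusted p = 0.04). Over all alternatives, that omission included, the adjusted p for the mean over stages ran from 0.04 to 0.77.

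Z00036582-1 had the smallest p at E14.5 and for the change to E15.5. It read 0.40 and 0.34 in wild-type and 0.23 and 0.09 in Tabby at E14.5, a difference of -0.21 (SE 0.06, limma adjusted p = 1.00). Its change to E15.5 differed by 0.26 (SE 0.09, adjusted p = 1.00). At E15.5 neither of its wild-type spots was well above background, nor was its spot on Tabby replicate 1. On the authors' scale its E14.5 arrays read 6.33 and 4.84 in wild-type and 4.54 and 3.75 in Tabby, so 1 array stood above the other 3. Z00063285-1 had the smallest p for the change to E16.5, which differed by 0.22 (SE 0.07, limma adjusted p = 1.00). It read 0.13 and 0.19 in wild-type and 0.04 and 0.01 in Tabby at E14.5, and -0.09 and -0.08 against 0.05 and -0.06 at E16.5, where neither wild-type spot was well above background.

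The calls at E15.5 turned on 1 array. In the members, the wild-type E15.5 replicates differed more than any other pair: the median SD within that group was 0.21 on the fitted scale (n = 2), against 0.08 to 0.09 in the other 5 groups. On the authors' scale it was 0.29, against 0.22 to 0.27. Of all probes, 71.1% were well above background on its replicate 1, the lowest of the 12 arrays, and 78.6% on its replicate 2. Every array other than that replicate 1 lay between 73.0% and 79.1%. The omission below keeps replicate 1, the array with the least detection, and which replicate was the unusual one was not tested. Without wild-type E15.5 replicate 2, which leaves 1 wild-type array at E15.5 that is assumed to vary like the other groups, limma called 17 members at E15.5, or 10.8%, against 6.85% of all probes; 5 of the 17 were higher in Tabby. The same omission gave 9 members for the mean over stages, or 5.73%, against 2.2% of all probes, and 7 for the change to E15.5, or 4.46%, against 2.26%. Of those 9, 4 were higher in Tabby; of the 7, 1 had the smaller drop in Tabby and the others the larger. Without wild-type E16.5 replicate 2, limma called 1 member at E16.5, Z00076690-1, lower in Tabby by 0.56 (SE 0.07, adjusted p = 0.03), against 0.215% of all probes.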

How the data were processed

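RNA of dissected eyelids was hybridised to 12 Agilent 44K arrays. Per the file headers, Agilent Feature Extraction 9.5.1.1 gave the deposited spot intensity per channel, with its detection calls, outlier flags and processed (background-subtracted, dye-normalised) signals and log10 ratio. The authors' deposited log10 value table has no stated scale or direction in the sources used here; each column matched the log10 processed green signal minus the array's deviation of log10 processed red from the probe's mean (r = 1.0000), so values rise with eyelid RNA. Its column medians lay between 2.33 and 2.35. They are printed as log2. One protocol text in the labels names footpad skin, while every sample label gives eyelids.

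Members and lists were chosen with earlier results of these data known. Tests used limma 3.58.1 (R 4.3.3): normexp (offset 50), loess with 1417 control spots at weight 0, flagged spots left out, repeated probes averaged, 6 group means fitted to all 12 arrays, 6 residual degrees of freedom, 2-sided, Benjamini-Hochberg adjustment. Of 42006 probes, the 32981 well above background on both arrays of at least 1 group were tested. The procedure was tested on simulated data. Positive differences mean higher in Tabby. Named probes are the 10 with the largest drops, the smallest p per test and those nearest each limit; others are stated as picked after their values were seen. The files pair no probe with a gene, so the marker and pathway lists, the Eda level and promoter sequences were not used here. Alternatives covered background correction, normalisation, the filter, array weights, the replicate number and each array left out.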

Additional observations from a re-analysis of the deposited data

How the results depend on the processing

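The number of probes the rule kept was 157 on the authors' values, 96 on loess ratios and 65 on the eyelid channel alone, of which 36 and 33 were members (22.9% and 21.0% of the 157); both of those settings differ from the main one in background correction, offset and normalisation together, and the cause was not tested. It was 297 in wild-type arrays alone, 306 and 79 with shares of at least 0.55 and 0.75, 316 with no detection requirement, and between 144 and 215 with each array left out; Feature Extraction's own ratio (155), Tabby arrays alone (187) and leaving out flagged spots (156, chosen after seeing the data) came within 1.5 times of 157. The members' median difference from E14.5 to E16.5 was -1.35 on the authors' values, -0.49 with median centring, -0.55 on the eyelid channel alone and -0.57 with normexp and loess, the last chosen after seeing the data; processed signals with loess and Feature Extraction's own ratio moved it by less than the spread between replicates. The members' median Tabby minus wild-type difference, with all 12 arrays kept, ranged from -0.13 to -0.03 at E14.5, up to 0.15 at E15.5 (just below 0 with median centring) and from 0.01 to 0.10 at E16.5. No member was called in any of the 6 genotype tests under the alternatives that keep all 12 arrays, or with only the arrays of a stage. With each array left out, members called ranged from 0 to 17 at E15.5, 0 to 1 at E16.5, 0 to 9 over stages, 0 to 7 for the change to E15.5, and 0 to 0 at E14.5 and for the change to E16.5. The counts over all probes moved by over 1.5 times: at E16.5 from 27 to between 0 and 71, at E15.5 from 0 to as many as 2257, over stages from 10 to between 1 and 726, for the change to E15.5 from 0 to as many as 746, for the change to E16.5 from 2 to between 0 and 14, and at E14.5 from 0 to as many as 5; the cause was not tested. Same-numbered arrays of the genotypes had deviations correlated at -0.07, 0.02 and 0.24 over the successive stages. The main fit treated them as unpaired, and whether those at E16.5 share more than a number was not tested. With the replicate block 0 members were called in each test. Matching probes to proteins for gene names was not run. Dimness limits the values: only bounds exist for 25 members at E16.5.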
